A study of Mus musculus with 18 samples.

Results

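The B lineage transcription factors are 10 genes that build and hold the identity of a B cell: Pax5, Ebf1, Tcf3, Ikzf1, Ikzf3, Foxo1, Bach2, Pou2af1, Spi1 and Irf8. They were taken by name from the raw count tables of a study of the chromatin protein SMCHD1. Of the 10 members, 9 had a row under their own symbol, and Spi1 was found by its gene identifier under the older symbol Sfpi1, so 10 of 25965 rows were described. All 10 passed the filter on low counts in each fit.

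RNA was sequenced from 18 sorted samples of femur marrow of C57BL/6 mice aged 12 to 16 months, and every sample bears a different animal number. The cells were sorted as CD45.2+ B220+ Mac1-, which are surface markers chosen to keep B cells and drop myeloid cells. There were 5 female del/del, 5 female heterozygous, 4 male del/del and 4 male heterozygous libraries. The del/del mice carried the genotype Smchd1[del/del] Vav.Cre[T/+], and the heterozygous mice carried Smchd1[del/+] Vav.Cre[T/+]. Every animal therefore had the Vav-Cre transgene, which acts in blood-forming cells from the stem cell stage on, and the controls had also lost 1 Smchd1 allele. No mouse without the transgene or without a deleted allele was analysed here, and females and males came in separate count tables, so sex and table cannot be told apart.

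A B cell is made in marrow by factors that act in order. The E2A proteins encoded by Tcf3 switch on Ebf1, EBF1 opens B cell genes and switches on Pax5, and PAX5 then keeps B cell genes on and genes of other lineages off. The Ikaros proteins, FOXO1, BACH2, the coactivator encoded by Pou2af1, and the pair PU.1 (Spi1) and IRF8 shape the steps before and after that commitment. Some of them are shared with other cells. For example, PU.1 is also the leading factor of myeloid cells, and IRF8 is abundant in plasmacytoid dendritic cells, which carry B220 as B cells do.

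Over 18 sex-centred libraries Irf8 ran most strongly against Ebf1 (r = -0.73). Next came Ikzf1 (-0.67), Tcf3 (-0.66), Pou2af1 (-0.57), Bach2 (-0.51), Pax5 (-0.40) and Foxo1 (-0.38). With Ikzf3 and Spi1 its r was 0.21 and 0.35. Bach2 and Foxo1 had r = 0.44 with each other. Promoters are shown for 3 members, Foxo1, Bach2 and Irf8. Each is the stretch of 250 bases before a RefSeq transcription start in GRCm38.p6, written 5′ to 3′ on the gene's strand, with matches to the motifs searched in capitals.
Foxo1, chr3:52268087-52268336 on the plus strand: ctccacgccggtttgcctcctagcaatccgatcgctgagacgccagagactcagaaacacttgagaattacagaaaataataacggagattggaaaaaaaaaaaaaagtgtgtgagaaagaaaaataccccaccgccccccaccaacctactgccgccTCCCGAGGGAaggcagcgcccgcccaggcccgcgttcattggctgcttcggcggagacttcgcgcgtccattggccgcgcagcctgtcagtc
Bach2, chr4:32417185-32417434 on the plus strand: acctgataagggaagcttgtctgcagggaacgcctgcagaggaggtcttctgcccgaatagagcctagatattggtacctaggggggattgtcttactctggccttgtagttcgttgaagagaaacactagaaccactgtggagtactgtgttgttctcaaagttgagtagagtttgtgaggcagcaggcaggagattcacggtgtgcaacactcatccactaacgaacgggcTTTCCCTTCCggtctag
Irf8, chr8:120736108-120736357 on the plus strand: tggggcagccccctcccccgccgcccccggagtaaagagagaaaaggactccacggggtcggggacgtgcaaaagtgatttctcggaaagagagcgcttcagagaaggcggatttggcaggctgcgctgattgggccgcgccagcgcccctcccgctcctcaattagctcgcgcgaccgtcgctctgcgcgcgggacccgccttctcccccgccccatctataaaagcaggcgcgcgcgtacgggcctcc
The capitals in Foxo1 mark TCCC and GGGA separated by 2 bases, the palindrome bound by EBF proteins, which 0.779% of the 32851 promoters of this length held. The capitals in Bach2 mark GGAA and GAAA separated by 2 bases, read on the other strand, the composite element at which PU.1 binds together with IRF4 or IRF8, which 2.30% of promoters held. The Bach2 start shown lies inside the gene, whose row begins at chr4:32238804. The Foxo1 and Irf8 stretches end just before their rows begin. The Irf8 stretch held none of the 8 motifs searched. It is rich in CpG, with 29 against 20 in Foxo1, 7 in Bach2 and a median of 6 over all promoters. RefSeq promoters were found for 8 of the 10 members, 11 promoters in all. The other motifs were searched on both strands too. The Ikaros core TGGGAA, held by 21.6% of promoters, was in a second promoter of Irf8 and 1 of Ebf1. The octamer ATGCAAAT (1.60% of promoters), the E box CAGCTG (13.0%), the FOXO site GTAAACA (3.17%), the AP1 and MAF site TGACTCA (4.46%) and the PU.1-type ETS site, GGAA with AGA before it and GTG after it (0.323%) had no match in the 11 member promoters. A match is a string of letters and says nothing of binding in these cells.

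Libraries held 19133963 to 25250778 counts in female del/del, 11650350 to 29405395 in female heterozygous, 19748770 to 22614546 in male del/del and 9788112 to 19958091 in male heterozygous animals. Levels are CPM, the counts of a gene divided by the library's total and put on a common scale, adjusted with TMM factors over all 18 libraries. Smchd1 itself averaged 141 ± 17.6 CPM in female del/del and 248 ± 17.4 CPM in female heterozygous libraries (SD, n = 5 each), and 177 ± 15.7 CPM in male del/del and 298 ± 21.6 CPM in male heterozygous libraries (SD, n = 4 each), without overlap in either sex. B cell markers were high in every library: Cd79a ranged from 1032 to 1596 CPM and Cd79b from 1564 to 1943 CPM. The gene of the marker sorted against, Itgam, ranged from 34.9 to 111 CPM. Transcripts of cell types other than B cells were present. Siglech, a defining gene of plasmacytoid dendritic cells, ranged from 61.8 to 451 CPM, the neutrophil gene S100a8 from 160 to 1007 CPM, and the T cell gene Cd3e from 0.942 to 7.52 CPM. In bulk RNA, fewer cells of a type and less RNA per cell cannot be told apart, and this holds for each level below. Female del/del libraries did not stand together: libraries 1, 3 and 5 had more plasmacytoid dendritic cell RNA and less cell cycle RNA than libraries 2 and 4, with the heterozygous libraries mostly between them.

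Set in order by level per kilobase of exon, the only scale on which levels of different genes are compared here, Pou2af1 led. It stood at 559 ± 93.0 CPM per kilobase (SD, n = 18), above the next member in 18 of 18 libraries. Tcf3 followed at 206 ± 39.4, Ikzf1 at 177 ± 26.9 and Irf8 at 101 ± 19.5 CPM per kilobase, each above the next in 15 to 17 libraries. Bach2 stood at 73.5 ± 17.3 and Ikzf3 at 68.3 ± 8.79 CPM per kilobase, with Bach2 the higher in 9 of 18 libraries. Their order differed between the tables of the sexes. In females Bach2 averaged 86.0 (del/del) and 85.7 (heterozygous) CPM per kilobase, against 68.9 and 60.5 for Ikzf3. In males Bach2 averaged 54.2 (del/del) and 62.0 (heterozygous) CPM per kilobase, against 70.6 and 74.8 for Ikzf3. Ikzf3 was above Ebf1, at 59.2 ± 10.6 CPM per kilobase, in 12 of 18 libraries. By group, Ebf1 averaged 65.1 CPM per kilobase in female del/del, 66.2 in female heterozygous, 49.1 in male del/del and 53.2 in male heterozygous libraries. The mean of Ikzf3 was thus higher in both male groups and in female del/del, and lower in female heterozygous libraries. The lowest were Foxo1 at 42.1 ± 2.97, Spi1 at 37.1 ± 4.44 and Pax5 at 32.1 ± 2.26 CPM per kilobase. Foxo1 and Spi1 were above the next in 15 and 16 of 18 libraries. The annotation behind the counts is not given, so the exon length counted may differ from the one used for this order.

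None of the 10 factors was called different between del/del and heterozygous B cells in females, in males or in both together. The calls, at an adjusted p under 0.05 in edgeR's quasi-likelihood test with Benjamini-Hochberg adjustment over all genes, numbered 0 of 10 members in females, where 0.252% of 13501 genes were called. They numbered 0 of 10 in males, where 0.119% of 13413 genes were called, and 0 of 10 over the 18 libraries with sex in the model, where 0.556% of 14017 genes were called. A count of 0 of 10 is near those background rates. In females the 95% intervals of the 10 log2 fold changes lay between -0.37 and 0.57, or 0.776 and 1.48 times the heterozygous level. In males they lay between -0.43 and 0.32, or 0.744 and 1.24 times. Over all 18 libraries they lay between -0.30 (Tcf3) and 0.40 (Irf8), or 0.813 and 1.32 times. At an unadjusted p under 0.05 there were 0 members in females, 0 in males and 1 over the 18 libraries, where 4.3%, 3.34% and 6.76% of genes stood. The median log2 fold change of the members was -0.010 in females, -0.079 in males and -0.044 over the 18 libraries, beside -0.0044, 0.0013 and -0.00048 over all genes tested.

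**Figure D1:**
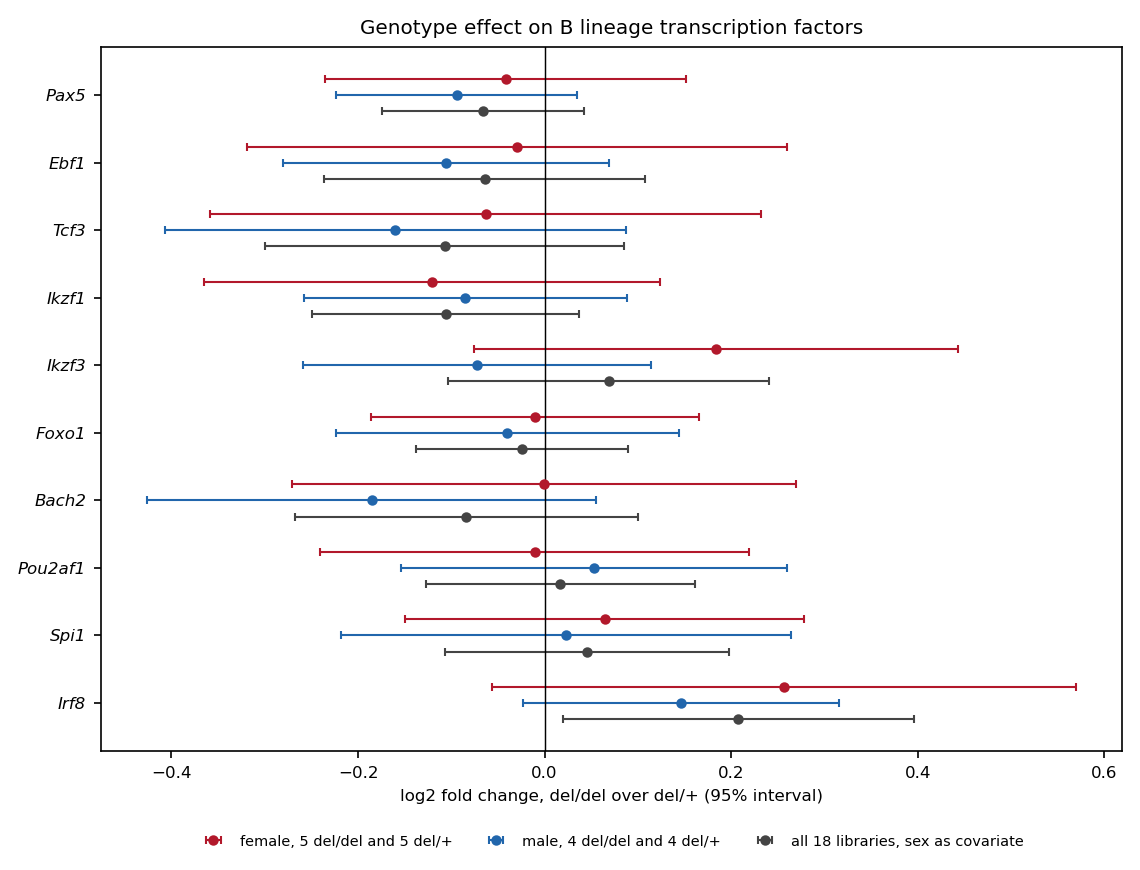
Log2 fold change of each factor, del/del over heterozygous (del/+), on the horizontal axis with its 95% interval, for 5 against 5 female libraries (red), 4 against 4 male libraries (blue) and all 18 with sex as a covariate (grey). Each interval holds 0 except that of Irf8 over all 18 libraries, which runs from 0.019 to 0.40 and has an adjusted p of 0.679.

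Among the factors that start and fix the lineage, Tcf3 (ENSMUSG00000020167, mm10 chr10:80409514-80433647) encodes the E2A proteins. Its 5 female del/del libraries held 758, 1236, 751, 998 and 768 CPM, and the 5 female heterozygous libraries held 938, 989, 906, 888 and 976 CPM. The del/del values lay on both sides of the heterozygous ones, with 3 below them all and 2 above them all. The log2 fold change was -0.063 (SE 0.14, adjusted p = 0.975). Male del/del libraries held 635, 816, 662 and 597 CPM, and male heterozygous libraries held 790.1, 783, 824 and 652 CPM. These groups overlapped, and the log2 fold change was -0.16 (SE 0.11, adjusted p = 0.9998).

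Ebf1 (ENSMUSG00000057098, chr11:44617317-45008091), which specifies the B lineage together with E2A, stood at 627, 751, 527, 794 and 477 CPM in female del/del libraries, and at 651, 704, 633, 643 and 598 CPM in female heterozygous libraries. The same split appeared: libraries 2 and 4 of the del/del group were above every heterozygous library and libraries 3 and 5 below every one. Males had 524, 491, 434 and 466 CPM in del/del libraries, against 542, 518, 538 and 476 CPM in heterozygous libraries. The log2 fold change was -0.029 (SE 0.13) in females and -0.11 (SE 0.078) in males, with adjusted p-values of 0.988 and 0.9998.

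Pax5 (ENSMUSG00000014030, chr4:44531145-44711446), which commits cells to the lineage, had the smallest SD of log2 CPM within groups of the 10, pooled over the 4 groups (0.10, with Foxo1 next at 0.11). It stood at 259, 339, 253, 283 and 273 CPM in female del/del libraries, against 298, 306, 283, 286 and 269 CPM in female heterozygous libraries. The female groups overlapped, as they did for all 10 members where 1.05% of genes did not overlap, and del/del library 2 was the highest of all 18. Male del/del libraries held 263, 279, 282 and 270.2 CPM, and male heterozygous libraries held 304, 289, 293 and 289.5 CPM. The male groups did not overlap, as was so for 1.97% of the genes tested in males, and Pax5 was the 1 member of 10 with that pattern there. Its difference was small, a log2 fold change of -0.094 (SE 0.058, 95% interval -0.22 to 0.035), and its adjusted p was 0.9998. Over all 18 libraries the value was -0.066 (SE 0.052, interval -0.17 to 0.042).

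**Figure D2:**
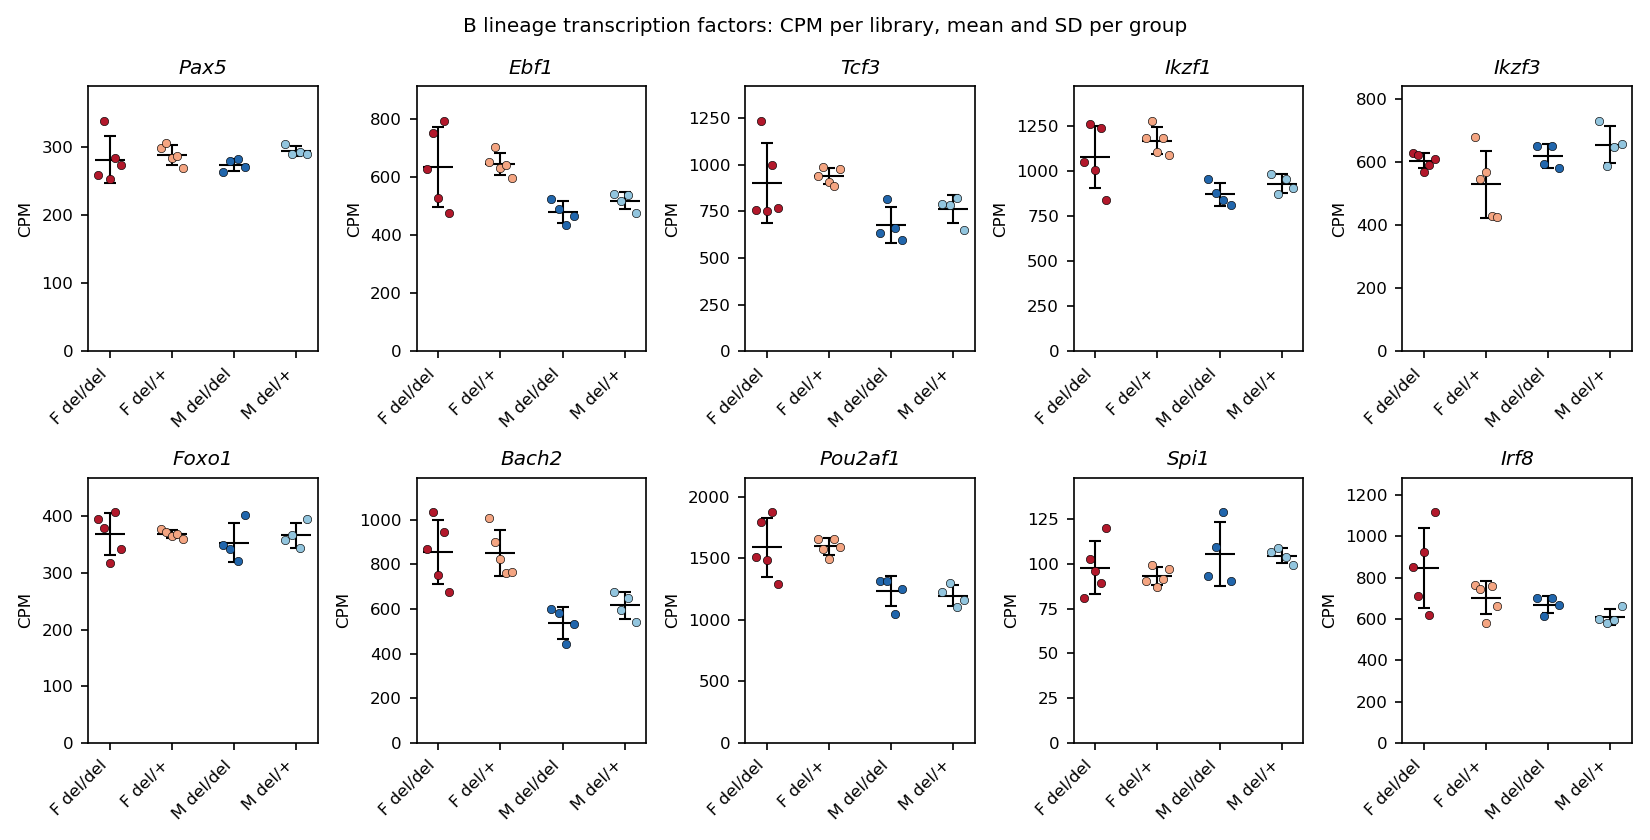
CPM of the 10 factors on vertical axes that start at 0, 1 point per library, with the mean and SD of female del/del and del/+ (F) and male del/del and del/+ (M) libraries. The female del/del points of Ebf1 and Tcf3 reach both above and below the female del/+ points, those of Irf8 reach above them, and Pax5 and Foxo1 stay within 253 to 339 and 318 to 408 CPM.

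The Ikaros zinc finger proteins are partners that silence and sustain lymphocyte genes. Ikzf1 (ENSMUSG00000018654, chr11:11685003-11772926), which encodes Ikaros, held 1052, 1262, 1005, 1237 and 842 CPM in female del/del and 1184, 1281, 1108, 1182 and 1089 CPM in female heterozygous libraries. In males it held 958, 879, 838 and 813 CPM in del/del and 987, 873, 957 and 908 CPM in heterozygous libraries. The groups overlapped in both sexes, and over 18 libraries the log2 fold change was -0.11 (SE 0.068, adjusted p = 0.807). Ikzf3 (ENSMUSG00000018168, chr11:98464902-98546031) encodes Aiolos, which is more abundant at later B cell stages. It held 629, 621, 569, 590.1 and 609 CPM in female del/del and 680.2, 545, 568, 429 and 425 CPM in female heterozygous libraries. Here the heterozygous animals were the ones that differed among themselves, and the log2 fold change was 0.18 (SE 0.12, adjusted p = 0.975). Male libraries held 650.2, 592, 649.6 and 581 CPM in del/del and 731, 588, 646 and 655 CPM in heterozygous animals, giving a log2 ratio of -0.073 (SE 0.084, adjusted p = 0.9998). Ikzf3 had the largest female minus male difference of genotype effects among the members, 0.27 (SE 0.16), and it was not called in the interaction test (adjusted p = 0.9999). In that test 0 of 14017 genes were called, or 0%, with 1.45% at an unadjusted p under 0.05 and 4 genes called by DESeq2.

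Foxo1 (ENSMUSG00000044167, chr3:52268337-52350109), which drives the interleukin 7 receptor and the recombinase genes, had nearly equal means. Female del/del libraries held 395, 379, 318, 408 and 343 CPM and female heterozygous libraries held 379, 373, 366, 369.6 and 360.2 CPM. The female means were 369 ± 37.1 and 369.5 ± 6.94 CPM (SD, n = 5 each). Male del/del libraries held 350.3, 342, 321 and 402 CPM and male heterozygous libraries held 359, 368, 344 and 395 CPM. Over all 18 libraries the log2 fold change was -0.024 (SE 0.054, interval -0.14 to 0.089). Rows of 2 other genes, Gm20402 on the opposite strand of Foxo1 and BC024582 on that of Bach2, averaged 20.6 and 49.3 CPM, and reads of overlapping genes could not be told apart without the strand setting.

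Bach2 (ENSMUSG00000040270, chr4:32238804-32586108), which holds back the plasma cell programme, held 869, 1034, 751, 946 and 675 CPM in female del/del and 1008, 900.5, 824, 761 and 767 CPM in female heterozygous libraries. Those groups had nearly the same mean, 855 ± 145 and 852 ± 104 CPM (SD, n = 5 each). Male libraries held 600.2, 580.2, 442 and 531 CPM in del/del and 678, 596, 648 and 543 CPM in heterozygous animals, with overlap. The male log2 fold change was -0.19 (SE 0.11, interval -0.43 to 0.055, adjusted p = 0.9998). Pou2af1 (ENSMUSG00000032053, chr9:51213690-51240079) encodes a coactivator that joins OCT proteins at octamer sites and is needed for germinal centres. It held 1508, 1791, 1488, 1873 and 1286 CPM in female del/del and 1659, 1575, 1496, 1657 and 1588 CPM in female heterozygous libraries. It held 1314, 1314, 1050.1 and 1252 CPM in male del/del and 1227, 1300.4, 1100.3 and 1156 CPM in male heterozygous libraries. The groups overlapped, and over 18 libraries the log2 fold change was 0.017 (SE 0.069, adjusted p = 0.965).

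Spi1 (ENSMUSG00000002111, chr2:91082390-91115756), which encodes the ETS factor PU.1, held 81.1, 103, 96.0, 89.7 and 120.0 CPM in female del/del and 90.7, 99.5, 87.2, 91.8 and 97.2 CPM in female heterozygous libraries. Male libraries held 93.5, 109.8, 129 and 90.6 CPM in del/del and 107, 109, 104 and 99.3 CPM in heterozygous animals. In both sexes the del/del values surrounded the heterozygous ones, and the log2 fold change over all libraries was 0.045 (SE 0.073). Summed CPM of 20 myeloid genes, cells in which Spi1 is also used, ranged from 1011 to 5109 in female del/del, 1531 to 3552 in female heterozygous, 1936 to 6074 in male del/del and 1853 to 3558 in male heterozygous libraries. Their part in the Spi1 level was not tested.

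Irf8 (ENSMUSG00000041515, chr8:120736358-120756694) had the largest difference of the 10 in females and over all 18 libraries. Female del/del libraries held 854, 711, 925, 618 and 1118 CPM and female heterozygous libraries held 763, 747, 581, 762 and 665 CPM. Libraries 1, 3 and 5 of the del/del group were above all heterozygous libraries and libraries 2 and 4 were among them. Male del/del libraries held 700.4, 613, 699 and 667 CPM and male heterozygous libraries held 600.0, 580.2, 595 and 664 CPM, with overlap. The log2 fold change was 0.26 (SE 0.14) in females, 0.15 (SE 0.076) in males and 0.21 (SE 0.090) over all 18 libraries. The last had an unadjusted p of 0.0325 and an adjusted p of 0.679, so Irf8 was not called. Irf8 lies within the row of Gm20388 on the same strand, which averaged 86.4 CPM.

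Irf8 is also a gene of plasmacytoid dendritic cells, so their markers are given beside it. Of 20 such genes 19 were tested, and 17 had a positive log2 fold change over the 18 libraries, with a median of 0.44. Only Il3ra, the interleukin 3 receptor alpha chain, was called, at 0.55 (SE 0.083, adjusted p = 0.00111). Il3ra averaged 21.7 ± 3.03 CPM in female del/del and 15.2 ± 1.55 CPM in female heterozygous libraries (SD, n = 5 each), and 16.4 ± 1.44 CPM in male del/del and 10.9 ± 1.5 CPM in male heterozygous libraries (SD, n = 4 each). The summed CPM of the list ranged from 3978 to 5080 in female del/del, 3769 to 5180 in female heterozygous, 2660 to 3210 in male del/del and 2931 to 3576 in male heterozygous libraries. In males the mean of that sum was lower in del/del, 3022 ± 252 CPM against 3206 ± 295 CPM in heterozygous libraries (SD, n = 4 each). Yet 16 of the 19 tested genes were positive in males, with a median log2 fold change of 0.46. The sum mainly follows its most abundant genes, Spib, Atp1b1 and Ly6d, at average log2 CPM of 10.6, 9.41 and 9.39, with Tcf4 next at 7.91. Over the 18 libraries Spib (-0.069) and Atp1b1 (-0.20) had the negative log2 fold changes of the list, and Ly6d was at 0.011. Klri1, untested for low counts, was at 0 in at least 1 library, and no tested marker was. The part of these cells in the Irf8 difference was not tested.

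The authors' deposited table also gave log2 fold changes. It called 0 of the 10 members in either sex, with Irf8 at 0.28 and Ikzf3 at 0.20 in females.

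Genes around the factors gave few calls as well. Of 38 other transcription factors of B cell development, such as the E proteins, RUNX, ETS and KLF families, 0 were called in any comparison. Their median log2 fold change over 18 libraries was -0.028, beside -0.00048 for all genes. The smallest p belonged to Runx2, a factor also used by plasmacytoid dendritic cells, whose log2 fold change was 0.50 (SE 0.18, adjusted p = 0.488). It averaged 124 ± 46.0 CPM in female del/del and 90.9 ± 23.8 CPM in female heterozygous libraries (SD, n = 5 each). Runx2, Tcf4 and Spib stand on this list and on the plasmacytoid list. Next were Lef1, a factor of pro-B cells, at -0.37 (SE 0.13, adjusted p = 0.507), and Erg, an ETS factor, at -0.32 (SE 0.16, adjusted p = 0.751).

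Targets were read in the same way. Of 18 genes known to be activated by PAX5, EBF1 or E2A, 0 were called in any comparison, and 4 had a positive log2 fold change over 18 libraries. The median was -0.058 over 18 libraries, -0.0012 in females and -0.13 in males. Rag1, a recombinase gene, had the smallest p there, and its log2 fold change was -0.33 (SE 0.15, adjusted p = 0.694). It averaged 1112 ± 275 CPM in female del/del and 1191 ± 204 CPM in female heterozygous libraries (SD, n = 5 each), and 576 ± 177 CPM in male del/del and 881 ± 116 CPM in male heterozygous libraries (SD, n = 4 each). Rag2, its partner, was at -0.27 (SE 0.13, adjusted p = 0.740) and Bst1, a surface enzyme of pre-B cells, at -0.23 (SE 0.11, adjusted p = 0.757). Of 9 genes that PAX5 represses, 0 were called and 8 had a positive value over 18 libraries, with a median of 0.16. These included Flt3, a cytokine receptor of progenitors and dendritic cells, at 0.38 (SE 0.14, adjusted p = 0.553). Lmo2, a factor of blood progenitors, was at 0.31 (SE 0.19, adjusted p = 0.801), and the myeloid surface gene Cd33 at 0.49 (SE 0.32, adjusted p = 0.808). Their summed CPM ranged from 261 to 538 in female del/del, 324 to 352 in female heterozygous, 441 to 612 in male del/del and 394 to 491 in male heterozygous libraries. Of 13 genes activated by FOXO1, 0 were called, with a median of 0.036. Rag1 and Rag2 are also on that list, and the adaptor gene Blnk, on both target lists, was at -0.093 (SE 0.059, adjusted p = 0.805).

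Stage lists leaned one way without a call. Each of 30 cell cycle genes had a negative log2 fold change in both sexes, with medians of -0.22 in females and -0.13 in males. Each of 17 pro-B and pre-B cell genes was negative over the 18 libraries, with a median of -0.23, while 22 of 24 mature B cell genes were positive, with a median of 0.11. None of these genes was called, and genes of one stage are not independent of each other. Other lists had medians over 18 libraries of -0.73 (15 erythroid genes), 0.20 (20 myeloid), -0.17 (17 T and NK cell) and 0.033 (9 plasma cell). The last medians were 0.019 (11 stem and progenitor) and 0.056 (6 B cell markers), with 0 genes called in each of these lists. In edgeR's test over 18 libraries, 10 of 15 erythroid and 9 of 19 plasmacytoid dendritic cell genes had an unadjusted p under 0.05. So did 7 of 17 T and NK cell, 4 of 17 pro-B and pre-B and 4 of 11 stem and progenitor genes. In the cell cycle, mature B cell, myeloid, plasma cell and B cell marker lists 0 genes did, and of all genes 6.76% did.

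The factors differed in how much they varied between animals of a group. The SD of log2 CPM within groups was 0.10 for Pax5 and 0.11 for Foxo1, at the 19.5th and 25th percentile of the 200 genes nearest in level. It was 0.15 for Ikzf1 and Pou2af1, 0.16 for Spi1, 0.17 for Ikzf3, 0.19 for Ebf1, 0.20 for Bach2, and 0.21 for Tcf3 and Irf8, all at the 42nd to 70.5th percentile. Split by genotype, the SD was larger in del/del than in heterozygous libraries for 9 of 10 members in females, with Ikzf3 the exception. So it was for 62.6% of all genes in females, with a median ratio of 1.21. The female SD of log2 CPM was 0.148 in del/del and 0.0271 in heterozygous libraries for Foxo1, 0.320 and 0.0670 for Tcf3, and 0.317 and 0.0845 for Ebf1. The ratios, 5.46, 4.78 and 3.76, stood at the 99.0th, 98.5th and 96.7th percentile of all genes. For Ikzf3 the SD was 0.0589 in del/del and 0.288 in heterozygous libraries, a ratio of 0.204 at the 0.378th percentile. In males the SD was again larger in del/del for 9 of 10 members and Ikzf3 the exception, whereas 47.3% of all genes had the larger SD in del/del. Male ratios were 4.07 for Spi1, 0.673 for Ikzf3 and 1.06 to 1.62 for the other 8. These spreads, taken over 4 or 5 libraries each, were chosen after the values were seen and were not tested. The members are not independent, since several moved together.

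**Figure D3:**
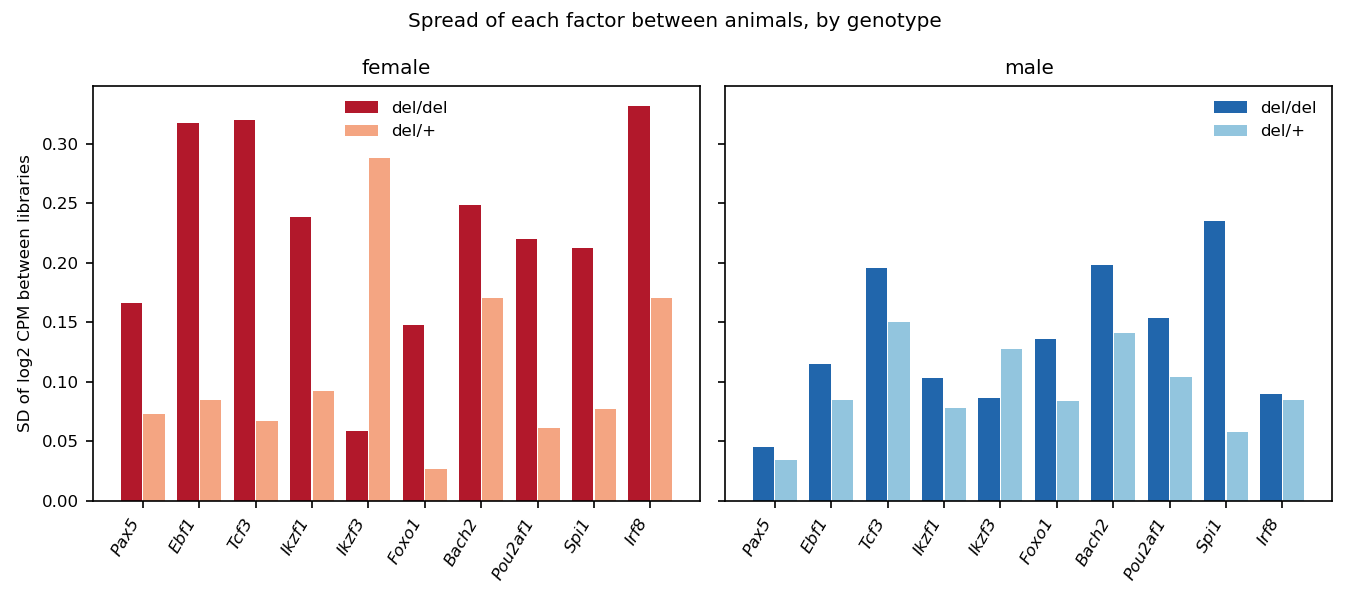
SD of log2 CPM between libraries (vertical axis, from 0) of the 10 factors in del/del and del/+ animals, females left and males right. The del/del bar is the taller for 9 of 10 factors in each sex, and Ikzf3 is the exception in both.

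Some of the factors varied together and others did not. Over 18 libraries, after subtracting the mean of each sex, Ebf1 correlated with Ikzf1 at r = 0.91, with Bach2 at 0.84 and with Irf8 at -0.73. Pax5 correlated with Tcf3 at 0.80, and Foxo1 with Spi1 at -0.61. Ikzf3 shared little with the others, with r between -0.12 (Pou2af1) and 0.42 (Bach2), and Foxo1 had r = 0.11 with Tcf3 and 0.25 with Pax5. These pairs were chosen from all pairs after their values were seen, share libraries and scaling, and carry no test.

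Each factor was also set against the mean log2 CPM of 3 lists: plasmacytoid dendritic cell, cell cycle and mature B cell genes. In female del/del libraries 1 to 5 the plasmacytoid dendritic cell list stood at 6.63, 5.82, 6.76, 5.59 and 6.84, and in female heterozygous libraries at 6.41, 6.02, 5.64, 5.97 and 5.97. The cell cycle list stood at 7.05, 7.74, 7.27, 7.71 and 6.83 in those del/del libraries and at 7.35, 7.69, 7.65, 7.64 and 7.54 in the heterozygous ones. The mature B cell list stood at 8.30, 7.79, 8.28, 8.04 and 8.74 in del/del and at 8.08, 7.91, 8.16, 8.34 and 8.13 in heterozygous libraries. Del/del libraries 2 and 4, with the higher Ebf1, had more cell cycle RNA and less of the plasmacytoid list than libraries 1, 3 and 5. Of the 30 relations over 18 sex-centred libraries, 17 had a permutation p of Pearson's r under 0.05 after Benjamini-Hochberg adjustment over the 30, and 11 of the 17 had an unadjusted p under 0.05 without the 2 libraries farthest from the median of the list. In females 16 of 30 did, and in the 8 males 0 of 30 did.

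Irf8 followed the plasmacytoid dendritic cell list, with r = 0.84 (permutation p = 3.00e-05, adjusted p = 0.000900) and Spearman's rho = 0.81 (permutation p = 0.000220, adjusted 0.00330) over 18 libraries. Without the 2 libraries farthest from the median, female del/del 3 and 5, r was 0.77. In females r was 0.93 and rho 0.96 (permutation p = 1.00e-05, the smallest that 100000 permutations can give, and 5.00e-05, adjusted p = 0.000300 and 0.00150). In males r was 0.56 and rho 0.57 (exact permutation p = 0.148 and 0.151, adjusted p = 0.525 and 0.733), and r was -0.21 without male del/del 1 and 3, so the male value rested on those libraries. After subtracting the mean of each of the 4 groups, which removes the genotype difference, r was 0.81 (permutation p = 0.00166, adjusted p = 0.0170). Irf8 also ran against the cell cycle list, at r = -0.77 and rho = -0.69 (permutation p = 0.000950 and 0.00448, adjusted p = 0.00364 and 0.0168), with r = -0.57 without female del/del 1 and 5. It ran with the mature B cell list at r = 0.71 and rho = 0.67 (permutation p = 0.00687 and 0.00587, adjusted p = 0.0159 and 0.0196). That relation had an adjusted p of 0.165 without female del/del library 5.

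Ebf1, Tcf3 and Ikzf1 followed the cell cycle list and ran against the mature B cell list. For Ebf1 r was 0.75 and rho 0.72 with the cell cycle list (permutation p = 0.00111 and 0.00195, adjusted p = 0.00370 and 0.0134). With the mature B cell list r was -0.79 and rho -0.69 (permutation p = 0.000550 and 0.00393, adjusted p = 0.00330 and 0.0168). Leaving out the 2 farthest libraries gave 0.68 and -0.59. In females the 2 values of r were 0.80 and -0.84, and in males 0.58 and -0.53. The male cell cycle value was -0.31 without male del/del 3 and 4, so it rested on them. That of Ikzf1 was 0.45, and -0.55 without the same libraries, and that of Tcf3 was 0.36 and -0.32. Tcf3 had r = 0.66 and rho = 0.60 with the cell cycle list (permutation p = 0.00515 and 0.0105, adjusted p = 0.0131 and 0.0263), and r = -0.79 and rho = -0.79 with the mature B cell list (permutation p = 0.000160 and 0.000140, adjusted p = 0.00240 and 0.00330). With the mature B cell list r was -0.76 without the 2 farthest libraries, -0.83 in females and -0.80 in males. Ikzf1 had r = 0.78 and rho = 0.69 with the cell cycle list (permutation p = 0.000530 and 0.00342, adjusted p = 0.00330 and 0.0168). With the mature B cell list r was -0.79 and rho -0.66 (permutation p = 0.000970 and 0.00684, adjusted p = 0.00364 and 0.0205). Without female del/del 2 and 5 the mature B cell value was -0.52 (permutation p = 0.0512), so it rested on them, and its male value was -0.22.

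Bach2 ran against the mature B cell list at r = -0.74 and rho = -0.73 (permutation p = 0.000300 and 0.00154, adjusted p = 0.00300 and 0.0134), with r = -0.84 in females and -0.60 in males and -0.60 without the 2 farthest libraries. Pou2af1 followed the cell cycle list at r = 0.75 and rho = 0.69 (permutation p = 0.000710 and 0.00223, adjusted p = 0.00355 and 0.0134), with r = 0.78 in females, 0.69 in males and 0.63 without the 2 farthest. It ran against the mature B cell list at r = -0.72 and rho = -0.63 (permutation p = 0.00216 and 0.00757, adjusted p = 0.00648 and 0.0206), but at -0.47 without female del/del 2 and 5 (permutation p = 0.0734), so this relation rested on them. The relations of Ebf1, Tcf3, Ikzf1 and Foxo1 with the plasmacytoid dendritic cell list also rested on 2 libraries. Their r lay between -0.67 and -0.56 (permutation p from 0.00525 to 0.0241, adjusted p from 0.0131 to 0.0425), and between -0.44 and -0.28 without female del/del 3 and 5. Their rho lay between -0.58 and -0.42 (permutation p from 0.0147 to 0.104), and among them rho of Foxo1 alone passed the adjustment, at 0.0340. Pax5 had r = -0.61 and rho = -0.59 with the mature B cell list (permutation p = 0.0228 and 0.0185, adjusted p = 0.0425 and 0.0397), and its call was lost in 10 of 20 alternatives. Ikzf3 and Spi1 had no relation with an adjusted p under 0.05. After subtracting the mean of each group, 7 of the 30 relations had an adjusted p under 0.05. Ebf1, Tcf3, Ikzf1, Bach2 and Pou2af1 did with the mature B cell list, Pou2af1 with the cell cycle list and Irf8 with the plasmacytoid list. The makeup of the sorted cells was not measured apart from RNA, and its part in these relations was not tested.

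**Figure D4:**
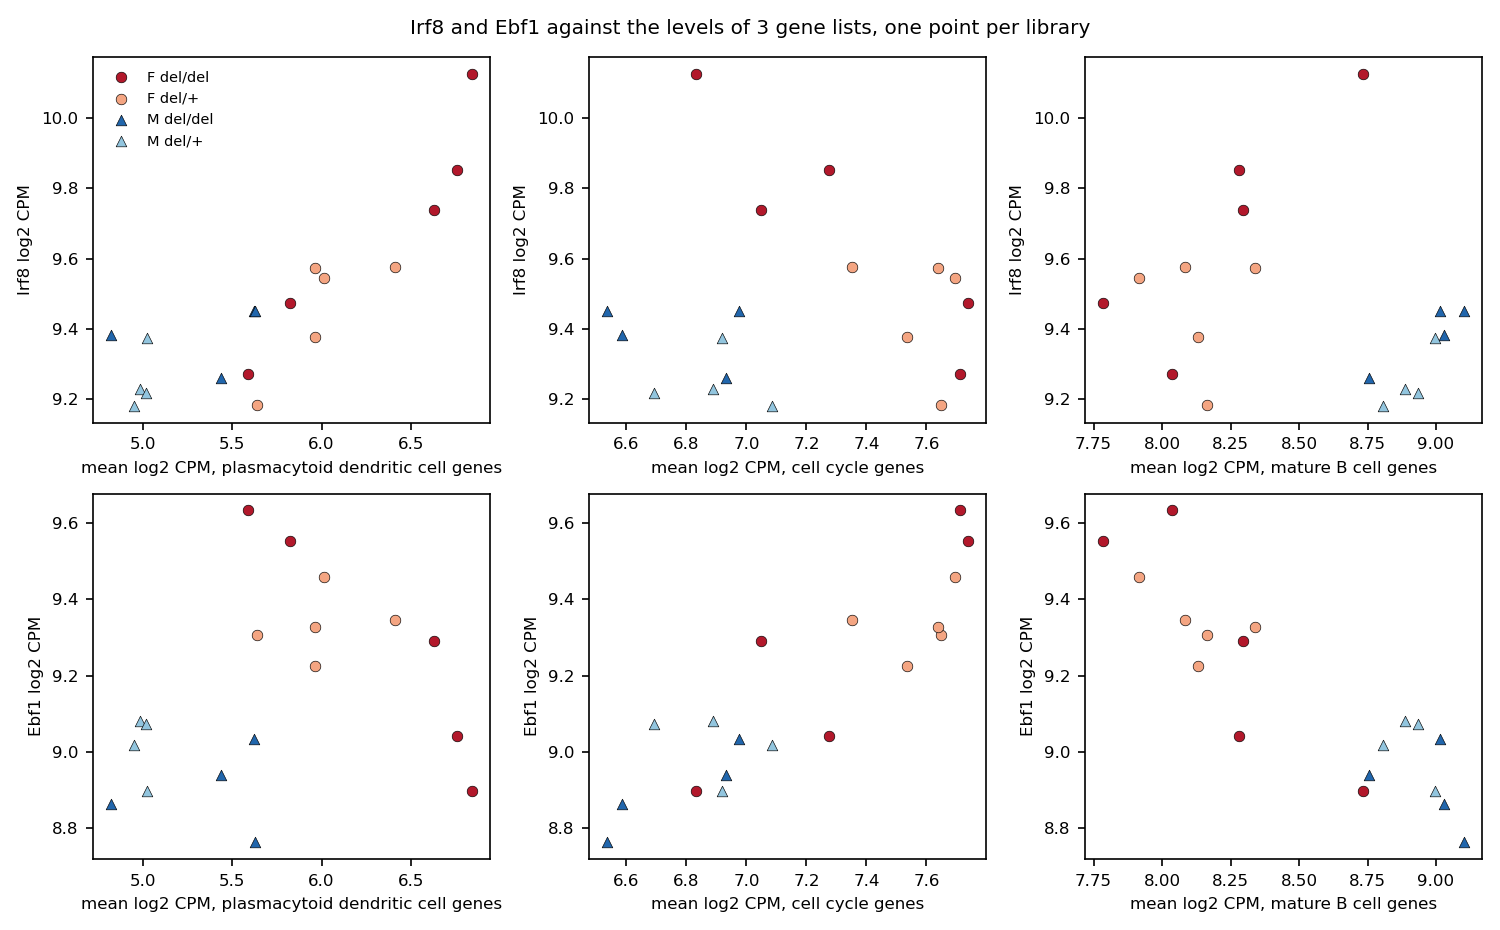
Log2 CPM of Irf8 (top) and Ebf1 (bottom) against the mean log2 CPM of plasmacytoid dendritic cell, cell cycle and mature B cell genes, 1 point per library, circles for females and triangles for males. Over 18 sex-centred libraries r was 0.84, -0.77 and 0.71 for Irf8 and -0.67, 0.75 and -0.79 for Ebf1.

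**Figure D5:**
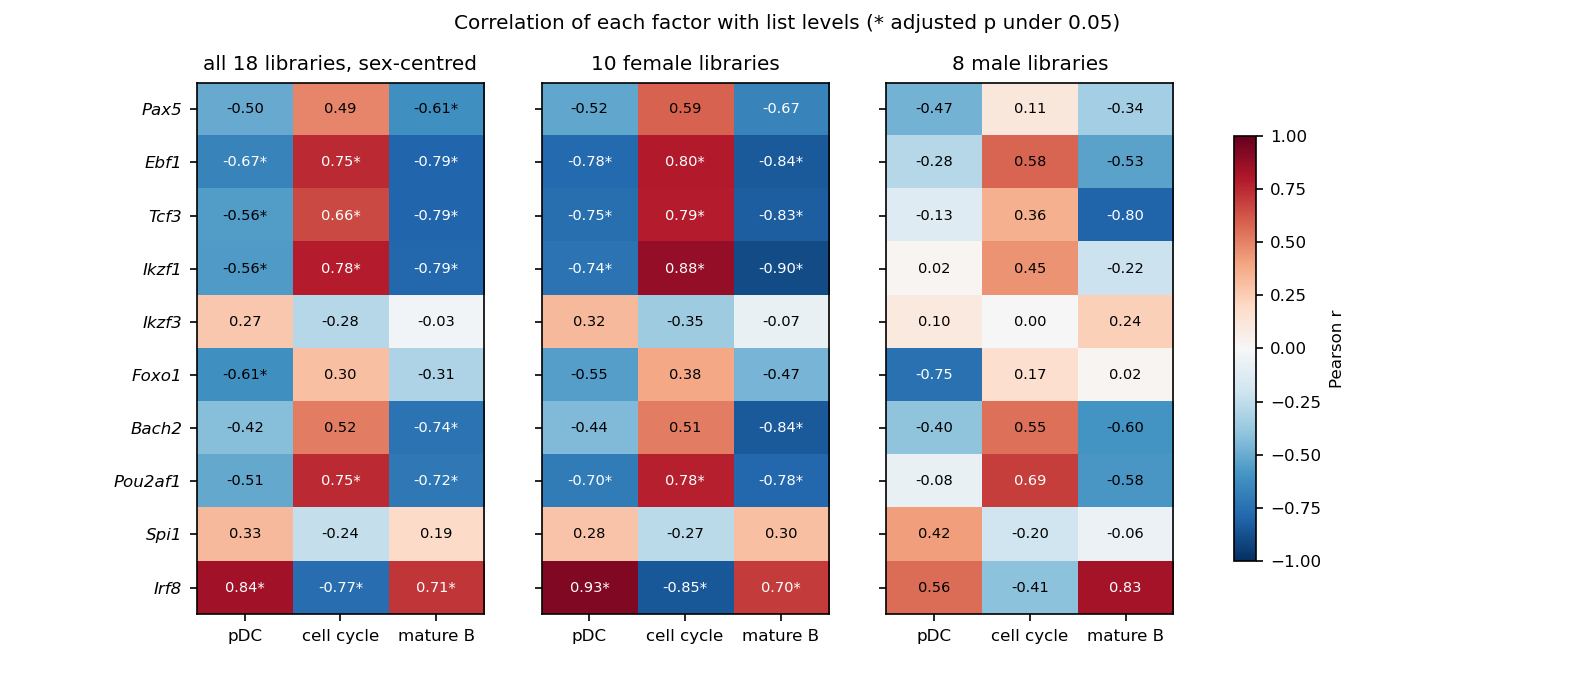
Pearson's r of the 10 factors (rows) with the 3 list levels (columns) over all 18 sex-centred libraries, 10 female and 8 male libraries, on a colour scale from -1 to 1 with stars at an adjusted p under 0.05. Stars stand on 17, 16 and 0 of 30 values.

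The genes whose levels were most like each factor's, of 11690 compared over the 18 sex-centred libraries, are given as a description. They were Med24 for Pax5 (r = 0.85), Atad1 and Cplx2 for Ebf1 (0.95 and 0.94), and Zfpm1 and Hdac5 for Tcf3 (0.93 each). Ikzf1 had Atad1 and Sdhaf2 (0.94 and 0.93), Ikzf3 had Gm13091 and Kdm6a (0.90 and 0.88), and Foxo1 had Tmem123 and Nmi (0.83 and 0.82). Bach2 had Cecr2 and Arid2 (0.95 and 0.93), Pou2af1 had Ipmk and Cops3 (0.91 each), Spi1 had Scand1 and Mtap1s (0.90 each), and Irf8 had Tmed3 and Pltp (0.93 each). Atad1 was the nearest gene of both Ebf1 and Ikzf1.

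Levels also differed between the tables of the sexes. Among heterozygous animals 5 of 10 factors were higher in all 5 females than in all 4 males, and 0 were lower. Of all genes, 23.7% had groups that did not overlap, with females above or below. Pou2af1 averaged 1595 ± 67.5 CPM in females and 1196 ± 86.7 CPM in males, and Bach2 averaged 852 ± 104 CPM in females and 616 ± 59.5 CPM in males (SD, n = 5 and 4). The log2 ratio of means, female over male, was 0.42 for Pou2af1, 0.47 for Bach2, 0.33 for Ikzf1, 0.32 for Ebf1 and 0.30 for Tcf3. Among del/del animals only Bach2 did not overlap, at 855 ± 145 CPM in females and 538 ± 70.7 CPM in males, a log2 ratio of 0.67, where 16.2% of genes did not overlap. Cell cycle and mature B cell lists differed between the tables as well. The cell cycle list stood at 7.35 to 7.69 in female and 6.69 to 7.08 in male heterozygous libraries, and the mature B cell list at 7.91 to 8.34 in female and 8.81 to 9.0 in male heterozygous libraries. These comparisons were added after the values were seen and were not tested, and the part of cell makeup in them was not tested.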

How the data were processed

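Raw counts of reads per gene were deposited by the authors in 1 table for each sex. They also deposited log2 fold changes and p-values between genotypes, per the file headers, which are quoted only as the authors' deposited table. The submitters' processing notes name TopHat, Trim Galore, FastQC, bcl2fastq and edgeR 3.32.1, and the builds mm10 and GRCm38. How reads were assigned to genes, with which annotation and whether by strand, is not given in the sources used here. Each table had 25965 rows, of which 56 lacked a gene identifier and held at most 0.0846% of a library's counts. These were kept, since each has a symbol. The 2 columns of group means per table were not used.

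Counts were tested in R 4.3.3 with edgeR 4.0.16: filterByExpr at its defaults (minimum count 10, minimum total 15), TMM factors, the quasi-likelihood test and Benjamini-Hochberg adjustment over all genes tested. Fits were made for each sex, for all 18 libraries with sex as a term, and for the interaction. Log2 fold changes are del/del over heterozygous. SE is the size of the log2 fold change divided by the square root of F. Log2 CPM used a prior count of 2. Per-length levels used the exon union of GENCODE M21. A list level is the mean log2 CPM of its tested genes. Correlations used two-sided permutation tests, exact for 8 libraries and with 100000 permutations otherwise, within sex for the 18. Interval levels are 95%. The depth of 9788112 to 29405395 counts gave each member at least 1025 reads per library. Counting error was not separated from the spread between animals.

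The text names all 10 members. Of each other list it draws on the genes called and up to 3 of smallest p over the 18 libraries. It names the 2 genes most like each member (1 of these is not reported here), Smchd1, and a few markers chosen after their values were seen. The members and lists were chosen with earlier results of these data known. Alternatives were RLE factors, 2 other filters, DESeq2 1.42.0, limma voom 3.58.1, 1 fit of 4 groups, leaving out each library, and blocks of nearest animal numbers. Scripts were tested on simulated data.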

Additional observations from a re-analysis of the deposited data

Results flagged for a closer look

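Of 100 group values tested, members and list levels together, 5 held a library far from the others of its group, which is about the 1 in 20 that chance gives, and no member was among them. The level of the other lymphoid transcription factors, a mean log2 CPM, was 6.49 in female del/del library 2, with the other 4 at 6.65 to 6.71. The FOXO1-activated list was at 7.63 in male del/del library 3, with the others at 7.71 to 7.72. The myeloid list was at 4.63 in male heterozygous library 3, with the others at 5.28 to 5.41. The plasma cell list was at 5.93 in female heterozygous library 2, with the others at 5.74 to 5.79. The pro-B and pre-B list was at 7.51 in female heterozygous library 1, with the others at 7.86 to 7.94.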

How the results depend on the processing

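The number of members called stayed at 0 of 10 in all 4 comparisons under every alternative run, and the lowest adjusted p of a member was 0.273, for Irf8 over 18 libraries. The number of genes called moved more: DESeq2 called 92 genes in females, 49 in males, 141 over all libraries and 4 in the interaction, and a fit of all 18 libraries in 4 groups called 58 in females. Leaving out each library in turn gave 26 to 41 calls in females, 57 to 115 over all libraries and 0 in the interaction. In males it gave 5 to 22, with 5 without heterozygous library 1 or del/del library 3, 6 without del/del 1, 9 without heterozygous 4 and 10 without del/del 4. Log2 fold changes near 0 turned sign. In females Bach2 was 0.0069 with RLE factors, without a filter and in DESeq2, 0.012 with a CPM filter of 1 and 0.0048 in the fit of 4 groups, and with that CPM filter Foxo1 was 0.0031 and Pou2af1 0.0024. Leaving out single libraries gave ranges on both sides of 0 in females for Ebf1 (-0.11 to 0.059), Foxo1 (-0.040 to 0.036), Bach2 (-0.074 to 0.074), Pou2af1 (-0.068 to 0.058) and Spi1 (-0.017 to 0.12), in males for Foxo1 (-0.11 to 0.0012) and Spi1 (-0.090 to 0.087), and over all libraries for Pou2af1 (-0.017 to 0.053) and Spi1 (-0.00020 to 0.088). It did so for the interaction of Pax5 (-0.0067 to 0.10), Ebf1 (-0.0019 to 0.18), Tcf3 (-0.028 to 0.20), Ikzf1 (-0.081 to 0.058), Pou2af1 (-0.12 to 0.019) and Spi1 (-0.025 to 0.17). Among 600 recomputed correlations 547 kept their side of the threshold, 39 lost their call, 9 gained one and 5 turned sign. The last were of Spi1 with cell cycle genes (r -0.46 to 0.16), Spi1 with mature B cell genes (-0.34 to 0.33) and Ikzf3 with mature B cell genes (-0.21 to 0.10). Without female del/del library 5 alone were lost Ebf1 with the plasmacytoid list (adjusted p = 0.0646) and, with the mature B cell list, Ikzf1 and Pou2af1 (0.0557 each) and Irf8 (0.165). Foxo1 with the plasmacytoid list was lost without female del/del 3, 4 or 5 (0.0503 to 0.0564). The other 3 relations were lost in 10 to 12 of 20 alternatives, all of them single libraries left out: Tcf3 (0.0501 to 0.111) and Ikzf1 (0.0510 to 0.215) with the plasmacytoid list and Pax5 with the mature B cell list (0.0515 to 0.160). The cause of these changes was not tested.

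The labels state no pairs. Each del/del library was matched by animal number to its closest heterozygous library. Their deviations from the group means correlated above 0.1 in 3 of 5 female and 3 of 4 male pairs. The r ran from -0.031 to 0.257 in females and from 0.067 to 0.297 in males. No r of unmatched libraries was computed, so this check cannot decide whether the numbers pair animals. The main fits used no pairs, since the labels state none. With these pairs as a replicate block, 23 genes were called in females, 13 in males, 88 over all libraries and 0 in the interaction, with 0 of 10 members in each.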
